A study of Rattus norvegicus with 20 samples.

Results

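Dimethylation at lysine 4 (K4me2) was measured across the genes of an expression array in the left ventricle of 1 normal and 1 failed heart of Dahl rats, strains bred for how their blood pressure answers salt. The 4 arrays used were the K4me2 immunoprecipitate (ChIP) and the genomic DNA taken before immunoprecipitation (pre-IP) of each heart, chosen by their labels from 20 arrays on mRNA, pre-IP DNA and 8 histone marks. Both animals were 19 weeks old per the labels, which describe the failed heart as one in congestive failure, mention high sodium in the diet only for its mRNA sample, and give no treatment for the normal animal. The histone that carries K4 is not named in the labels. According to the design text, an experiment used 1 ventricle specimen, and the sources used here do not say whether the arrays of a heart shared one. There was 1 array per assay and heart, so values have no replicate error, no test between the hearts was possible, and every difference is one between single arrays. Heart state, animal, specimen, immunoprecipitation and array cannot be told apart.

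Methylation of lysine 4, known mainly on histone H3, is laid down by enzymes of the KMT2 and SETD1 complexes and removed by the KDM1 and KDM5 demethylases. The dimethyl form is known from promoters and enhancers, on active genes as well as on genes held ready for induction, and often flanks the trimethyl form that sits at active start sites. Immediate early genes, which respond to a stimulus before any new protein is made, are a textbook example of genes kept in open chromatin in the resting state.

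Values are intensities per probe set, rescaled so that the median of each array is 100, with a floor of 10. Enrichment is the log2 ChIP value minus the log2 pre-IP value of the same heart, and a difference is failed minus normal. The probe sets were designed for transcripts, so a value describes DNA under a transcribed sequence and not a promoter. How far a probe set lies from the start of its gene, and how long the gene is, were not examined. Gene lists and families may differ in both, so their order holds for the mark as read at these probe sets. Of 14217 genes measured, 7016 had a mean level over the 4 arrays at or above the median of all probe sets, and these are called genes compared. None of the 7016 had a value at the floor, against 916 of all genes measured. The level filter includes the ChIP arrays and so favours marked genes: median enrichment was 0.34 (normal) and 0.46 (failed) over genes compared, and 0.04 and 0.05 over all genes measured. On the mRNA arrays of the same hearts the 14 measured sarcomere genes of heart muscle lay at medians of 6.23 and 7.33 log2 units above the array median, as a check of the labelled tissue, while liver and brain genes lay at -0.96 and -1.61. Fibroblast markers had mRNA medians of 4.58 and 5.46 and macrophage and leukocyte markers of 0.46 and 1.11, so both were higher on the failed array. This was not particular to them. Their median mRNA differences were 0.87 and 0.74, beside 0.88 for sarcomere and 0.96 for respiratory chain genes. Endothelial and smooth muscle markers had -0.13 and -1.11. In such bulk tissue fewer cells of a type and less of the mark per cell cannot be told apart.

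Which genes carried K4me2 in both hearts was the first question. At an enrichment of 1 or more, which is 2-fold over pre-IP, 1789 genes compared passed in the normal heart (25.5% of genes compared) and 2046 in the failed heart (29.2%). In both hearts 1240 passed (17.7%), which is 69.3% of the normal and 60.6% of the failed set. The count moved with the scaling and the input: it was 438 as deposited, 330 after quantile normalization of the arrays and 2941 without pre-IP. At the other end 92 genes lay at -1 or less in both hearts (1.31%), a count of 600 as deposited, 298 after quantile normalization and 0 without pre-IP. Over all genes measured, 1427 reached 1 in both hearts (10%), 5163 were above 0 in both (36.3%) and 4481 were below 0 in both (31.5%). Across genes compared, enrichment in one heart followed enrichment in the other with a Spearman rho of 0.676 over 7016 genes. The hearts share no array in this comparison, but they share the probe sets, and the pre-IP levels alone gave a rho of 0.707 and the ChIP levels alone 0.826. With the pre-IP arrays exchanged between the hearts rho was 0.582. These are descriptions across genes, which are not independent replicates.

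**Figure D1:**
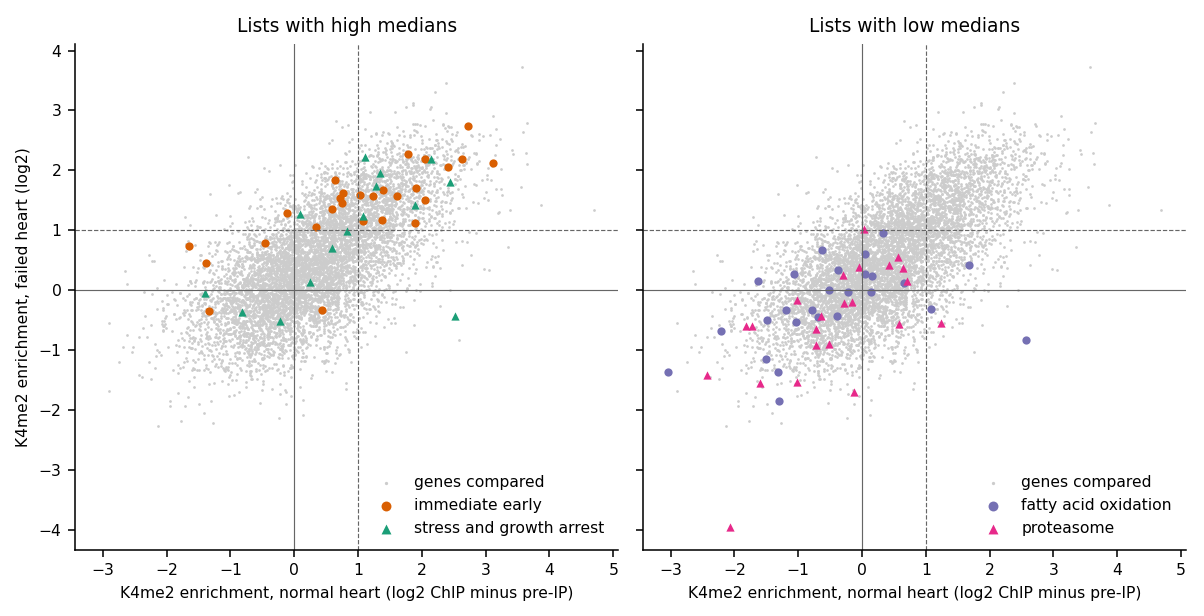
K4me2 enrichment (log2 ChIP minus pre-IP) of the normal heart on the horizontal and of the failed heart on the vertical axis, with 7016 genes compared in grey and the measured members of 4 gene lists in colour, and dashed lines at 1. Of 27 immediate early genes 21 lie above 0 in both hearts, while 12 of 26 fatty acid oxidation and 14 of 23 proteasome genes lie below 0 in both. Of all genes measured, 36.3% lie above and 31.5% below 0 in both.

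Immediate early genes, transcription factors and feedback regulators induced within minutes of a stimulus, had medians above 0 in both hearts under all 10 alternative settings. In the failed heart theirs was the highest median of the 29 lists under the main setting and 8 alternatives, but ribosomal proteins were higher without pre-IP, at 3.79 against 2.53, and stress genes with pre-IP swapped, at 1.77 against 1.58. Median enrichment was 1.08 in normal and 1.54 in failed tissue. List medians took all measured members, and none of this list was at the floor. The alternatives on the level filter and on genes at the floor therefore could not change its medians. Of 27 measured, 15 reached 1 in both hearts, against 10% of all genes measured. In both hearts 21 were above 0 and 1, Nr4a3, was below 0, beside 36.3% and 31.5% of all genes measured. Of the 27, 22 passed the level filter. Ier5, an immediate early response gene, gave K4me2 intensities of 512 (normal) and 621 (failed) over pre-IP intensities of 77.4 and 92.7, which makes enrichments of 2.73 and 2.74. Ier3, a regulator of cell survival, gave 3014 and 3821 over 349 and 876, enrichments of 3.11 and 2.12. In both genes each ChIP value lay above both pre-IP values. Zfp36, which makes inflammatory mRNAs unstable, gave 1231 and 1639 over 231 and 392, enrichments of 2.41 and 2.06. Fosl1, a partner of the AP-1 factor Jun, gave 1160 and 1332 over 187 and 293, enrichments of 2.63 and 2.18. AP-1 members followed: Junb had 1.78 and 2.27, Jun 1.60 and 1.57, Jund 1.08 and 1.15, and Fosl2 1.03 and 1.59. Fos itself had 0.77 and 1.61, with K4me2 intensities of 84.2 and 129 close to the array median.

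The members at the other end of that list were nuclear receptors and a stress factor, and they were low in the normal heart only or in both. Atf3, a stress-induced repressor, gave K4me2 intensities of 26.2 and 116 over pre-IP intensities of 81.9 and 70.2, enrichments of -1.64 and 0.73, at a mean level that did not pass the level filter. Nr4a2 had -1.38 and 0.46 and Nr4a3 -1.34 and -0.34, while their relative Nr4a1 had 0.75 and 1.45 at dim intensities of 50.9 and 49.5. The members with a difference of 1 or more between hearts numbered 5 of 27, beside 14.3% of all genes measured, so the count is near the background, at 2.37 for Atf3, 1.84 for Nr4a2, 1.40 for Sgk1, 1.25 for Egr2 and 1.20 for Fosb. Without pre-IP the ChIP differences of these genes were 2.15, 1.09, 0.79, 0.95 and 0.19. No immediate early gene was lower by 1 or more, beside 12.8% of all genes measured and 6.66% of genes compared. In a list of 27 a count of 0 is not far from the second share. The choice of probe set mattered even inside this list: Dusp1, a phosphatase that ends MAP kinase signals, had 2.06 and 2.19 at the probe set that represents it and -0.21 and 0.40 at its other one, which was brighter in ChIP at 1691 and 3048.

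Stress and growth arrest genes had medians of 1.07 and 1.23 and 7 of 15 members at 1 or more in both hearts, against 10% of all genes measured and 17.7% of genes compared. Ddit4, a stress-induced brake on the growth kinase mTOR, gave K4me2 intensities of 387 and 397 over 87.1 and 87.2, enrichments of 2.15 and 2.19, so its 4 values were nearly the same in the 2 hearts. The growth arrest genes Gadd45a, Gadd45b and Gadd45g had 1.89 and 1.42, 1.12 and 2.22, and 1.34 and 1.96. The factors Cebpb and Cebpd had 2.45 and 1.81, and 1.07 and 1.23, and Txnip, a thioredoxin inhibitor, 1.28 and 1.74. The p53 targets Mdm2 and Cdkn1a were below 0 in both hearts, at -0.23 and -0.51 and at -0.83 and -0.37. Hmox1, the heme-degrading enzyme, had -1.39 and -0.04. Trib3, a pseudokinase, had 2.52 and -0.43, with K4me2 intensities of 114 and 74.6 but pre-IP intensities of 19.8 and 101.

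Heat shock and chaperone genes had medians of 0.72 and 0.88, with 11 of 16 above 0 in both hearts, against 36.3% of all genes measured, and 3 at 1 or more in both. A count of 3 of 16, with 15 past the level filter, is near the 17.7% of genes compared. Those 3 were the small heat shock protein genes Hspb2, at 2.74 and 2.23, and Hspb8, at 2.12 and 2.38, and the inducible Hspa1a, at 1.10 and 1.90. The chaperones of mitochondria and cytosol Hspd1 and Hsph1 were below 0 in both hearts, at -0.71 and -0.78 and at -0.63 and -1.37. Chemokine, interleukin and related cytokine genes had medians of 0.62 and 0.79, with 21 of 28 above 0 in both, against 36.3% of all genes measured, although their mRNA medians lay below the array median, at -0.51 and -0.69. The 5 members at 1 or more in both hearts, beside 10% of all genes measured, were the chemokines Ccl3, Ccl2 and Cx3cl1, the cytokine Tnf and the anti-inflammatory Il10. Ccl3 gave K4me2 intensities of 160 and 345 over 21.8 and 80.1, enrichments of 2.87 and 2.11, and Cx3cl1 had 2.05 and 2.16. Il10 had 1.60 and 1.61, with its mRNA value at the floor in both hearts. At the low end were Il13, at -0.96 and -0.77, and Cxcl2, whose normal ChIP value was at the floor.

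Among genes of cardiac identity the mark was uneven. Potassium and pacemaker channel genes had medians of 0.52 and 0.64 with 4 of 14 members at 1 or more in both hearts, beside 10% of all genes measured. Kcnj11, the pore of the ATP-sensitive potassium channel, had 2.80 and 1.48, Kcnj3, a channel opened by acetylcholine signalling, 1.85 and 2.04, Kcnh2 1.11 and 1.54 and Kcnq1 1.13 and 1.02, both of which carry repolarising currents. Kcnd2 and Kcnd3, of the transient outward current, were below 0 in both, at -1.95 and -1.30 and at -0.87 and -0.91. Cardiac transcription factor genes had medians of 0.27 and 0.86, with 10 of 17 above 0 in both and 1 below 0 in both, beside 36.3% and 31.5% of all genes measured. Nkx2-5, the homeobox factor of heart muscle, gave K4me2 intensities of 296 and 200 over 91.2 and 62.2, enrichments of 1.70 and 1.69. Gata6 had 1.53 and 1.37, Gata4 0.88 and 1.55 with 1.71 and 1.59 at its other probe set, and Hand2, a factor of ventricle formation, 0.91 and 2.16. Tbx5 had 0.12 and -0.25.

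Sarcomere, calcium handling, fatty acid oxidation and proteasome genes had 0 or 1 members at 1 or more in both hearts, where all genes measured had 10%. In lists this short such counts are not far from that share. Other genes of fuel use were not fewer, with 3 of 16 for glycolysis and 3 of 28 for the respiratory chain. The 14 sarcomere genes had medians of 0.26 and 0.06 and 1 at 1 or more in both hearts, Tnnc1, the calcium sensor of the thin filament, at 1.86 and 1.96. Calcium handling genes had medians of -0.50 and -0.15 and 0 of 15 at 1 or more in both. Atp2a2, the calcium pump of the sarcoplasmic reticulum, was among the lowest of all genes compared: it gave K4me2 intensities of 144 and 72.7 under pre-IP intensities of 492 and 331, enrichments of -1.77 and -2.19. Its 5 probe sets did not all lie low, since 1 gave 0.79 and 0.67 and the others -1.44 and -1.10, -0.92 and -1.50, and -0.08 and -0.76. Fatty acid oxidation genes had medians of -0.57 and -0.17 and 0 of 26 at 1 or more in both hearts. Cpt1b, which carries fatty acids into mitochondria, had 1.68 and 0.42, while Cd36, the fatty acid transporter, had -1.50 and -1.15 and Acadl, a chain-shortening dehydrogenase, -1.31 and -1.85. Hadhb had -3.05 and -1.37, with its normal ChIP value at the floor. The 23 proteasome genes had medians of -0.29 and -0.54, with 14 below 0 in both hearts, against 31.5% of all genes measured, and 0 at 1 or more in both. Psma7 had the highest mean, with 0.56 in each heart, and Psmd2 was low at -2.43 and -1.42. Without pre-IP the calcium handling median in the normal heart was 0.53, the fatty acid oxidation median in the normal heart 0.36 and the proteasome median in the failed heart 0.42, so the sign of these medians depended on the pre-IP values. The order of the lists did too: without pre-IP the sarcomere medians were 1.29 and 1.17, above 0.90 and 0.84 for the channel genes and 0.45 and 0.42 for the cardiac transcription factors.

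Several lists sat near the middle or held few genes, and their counts are read beside the 10% of all genes measured at 1 or more in both hearts. Extracellular matrix genes had medians of 0.13 and 0.09 with 0 of 29 at 1 or more in both hearts, and the 12 hypertrophy genes -0.13 and 0.04 with 0. Among respiratory chain genes 3 of 28 reached 1 in both, at medians of 0.41 and 0.32, and among glycolysis genes 3 of 16, at 0.47 and 0.29. Among clock genes 4 of 16 did, led by the repressors Bhlhe40, at 1.82 and 1.96, and Bhlhe41, at 1.62 and 2.06. The enzymes of the mark itself had medians below 0. The 18 genes of K4 methyltransferase complexes had medians of -0.34 and -0.23, with 10 below 0 in both hearts and 3 above. Of all genes measured, 31.5% were below 0 in both and 36.3% above. The 3 methyltransferase complex genes above 0 were Men1, the menin scaffold, at 1.88 and 1.54, the methyltransferase Kmt2d at 1.26 and 2.08, and Smyd2 at 0.95 and 0.71. The 11 genes of K4 demethylases and their partners had -0.13 and -0.19, with 4 below 0 in both hearts, 1 above and 0 at 1 or more in both, to be read beside the same shares. Without pre-IP the methyltransferase median in the failed heart was 0.16. Markers of cells other than muscle had medians of 0.28 and 0.20 for fibroblasts, 0.60 and 0.55 for endothelium, 0.10 and -0.03 for smooth muscle, 0.48 and 0.32 for macrophages and leukocytes, and -0.75 and -0.48 for skeletal muscle. The 6 adipocyte markers had 1.60 and 0.46, with a median pre-IP difference of 0.71 and a median ChIP difference of 0.06, and the 4 red cell markers 0.55 and 0.42.

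**Figure D2:**
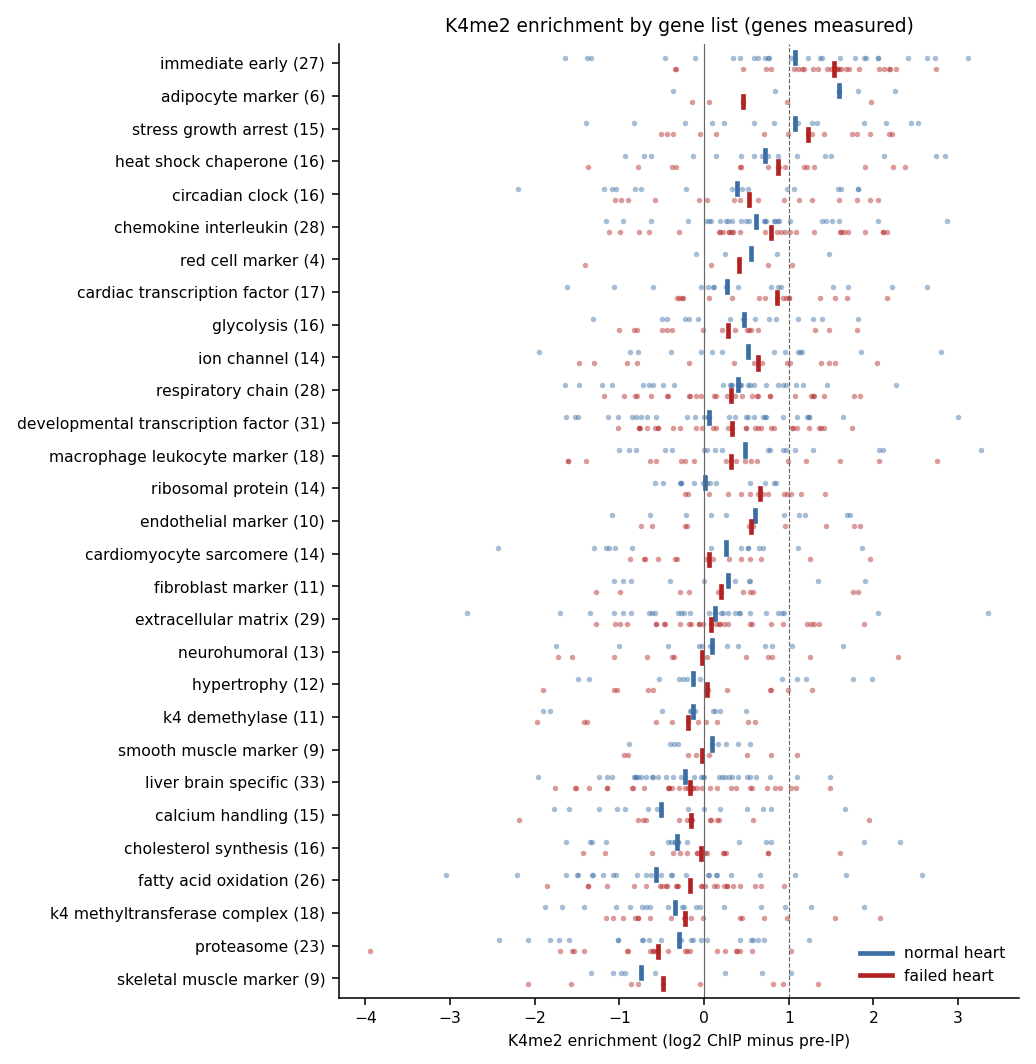
K4me2 enrichment (log2 ChIP minus pre-IP, horizontal axis) of every measured member of 29 gene lists, with the number measured in brackets, as points for the normal (blue) and failed (red) heart and a thick tick at each median. Immediate early genes have medians of 1.08 and 1.54, and the members of most lists spread over several log2 units around their medians.

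Families of symbols with the same leading letters gave a view that needed no list. Among 90 families of 15 or more genes, Ccl chemokines ranked first by the median over both hearts, with 0.58 (normal) and 1.14 (failed). Next were the inward rectifier channels Kcnj, at 1.09 and 0.76, the small membrane proteins Smim, at 0.78 and 0.69, the matrix metalloproteinases Mmp, at 0.51 and 0.47, and the cytochrome oxidase family Cox, at 0.48 and 0.53. The lowest were the prolactin family Prl, at -1.29 and -0.79, of which 0 of 18 passed the level filter. Next lowest were the lysine demethylases Kdm, at -0.46 and -0.52, the collagens Col, at -0.23 and -0.19, and the cadherins Cdh, at -0.21 and -0.67.

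Gene by gene, Tbcc, a tubulin folding cofactor, had the highest mean enrichment over both hearts, from K4me2 intensities of 356 and 849 over pre-IP intensities of 30.0 and 64.0, which gives 3.57 and 3.73. Fam43a followed with 3.65 and 2.80, and Slc23a3, of the ascorbate transporter family, with 3.11 and 2.91. Fitm1, which helps form lipid droplets, had 3.64 and 2.11, Nrm, a protein of the nuclear envelope, 3.41 and 2.34, H2bc8, a histone H2B gene, 3.22 and 2.52 at a probe set that near-identical copies may share, and Smg6, a nuclease of mRNA decay, 3.44 and 2.27. S1pr1, the sphingosine phosphate receptor of endothelium, had 3.07 and 2.59 and Nsmce3, of the SMC5/6 complex, 3.16 and 2.42. Nsmce3 had 3.01 and 2.15 at its other probe set and Nrm 1.63 and 2.57, whereas S1pr1 had 0.59 and -0.81 and the 4 other probe sets of Igfbp5, itself at 2.38 and 3.45, ran from -2.71 to 0.55 in the normal heart. Pgls and Ppm1n also ranked among the highest 12, at 4.69 and 1.34 and at 3.62 and 2.29, on normal pre-IP intensities of 10.7 and 29.0. Dim normal pre-IP was not special to them: S1pr1 had 24.1, Smg6 less than S1pr1, Nsmce3 31.1, Fam43a 38.4 and Fitm1 43.4. Slc23a3, H2bc8 and Igfbp5 had 62.3, 76.9 and 77.9, and of the 12 only Nrm lay above the array median of 100. The ranking therefore rests on low pre-IP values as well as on K4me2 values. The lowest were Defb4, a defensin, at -2.90 and -1.68, Arg1, an arginase, at -2.13 and -2.26, Atp2a2, Copa, a coatomer subunit, at -2.75 and -1.19, Gnpnat1, an enzyme of amino sugar synthesis, at -1.95 and -1.94, and Psmd2.

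The base composition of promoters did not order the mark as read at the probe sets. The probe sets lie in transcribed sequence and the CG counts are of the promoter, so these are different stretches of DNA. K4me2 at the promoters themselves was not measured. The RefSeq windows of 250 bases before to 50 bases after the start, on build GRCr8, were found for 11700 genes. In 5 equal groups by the number of CG dinucleotides, the share at 1 or more in both hearts was 8.76%, 10.9%, 11.2%, 10.6% and 8.25% from the poorest to the richest. Median CG counts were 19 for the genes marked in both hearts, 1008 of 1240 with a window, and 20 for all genes compared. The windows of 6 genes, picked after their values were seen, show the spread, with the 250 bases before the start printed and CG in capitals. Zfp36 (chr1:92799109-92799358, minus strand), Fosl1 (chr1:212183635-212183884, plus strand) and Ddit4 (chr20:28437038-28437287, minus strand) are marked genes of the leading lists with 18, 17 and 19 CG. Slc23a3 (chr9:84080038-84080287, minus strand) is a marked gene with 3 CG. Atp2a2 (chr12:39733269-39733518, plus strand) is low in the mark with 45 CG, and Myh7 (chr15:32438195-32438444, minus strand), with 4 CG, differed most between the ChIP arrays of the genes named here.
Zfp36: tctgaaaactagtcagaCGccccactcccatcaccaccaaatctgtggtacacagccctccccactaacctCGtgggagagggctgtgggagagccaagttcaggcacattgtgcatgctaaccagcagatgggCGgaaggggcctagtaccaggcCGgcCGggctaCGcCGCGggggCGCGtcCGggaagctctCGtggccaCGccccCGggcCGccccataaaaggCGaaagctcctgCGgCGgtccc
Fosl1: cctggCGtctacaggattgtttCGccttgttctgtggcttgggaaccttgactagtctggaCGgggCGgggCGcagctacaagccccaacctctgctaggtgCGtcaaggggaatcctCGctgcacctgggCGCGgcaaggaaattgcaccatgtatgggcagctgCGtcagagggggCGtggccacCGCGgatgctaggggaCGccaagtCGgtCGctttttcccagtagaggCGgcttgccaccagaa
Ddit4: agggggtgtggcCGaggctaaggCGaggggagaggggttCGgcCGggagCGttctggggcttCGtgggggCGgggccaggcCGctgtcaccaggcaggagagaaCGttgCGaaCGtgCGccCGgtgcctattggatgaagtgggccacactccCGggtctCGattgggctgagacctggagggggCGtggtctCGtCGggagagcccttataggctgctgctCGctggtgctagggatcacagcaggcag
Slc23a3: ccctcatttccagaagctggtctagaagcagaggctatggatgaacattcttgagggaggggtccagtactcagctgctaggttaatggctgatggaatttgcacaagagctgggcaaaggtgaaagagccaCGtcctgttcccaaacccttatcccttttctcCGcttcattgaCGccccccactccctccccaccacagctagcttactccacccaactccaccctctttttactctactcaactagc
Atp2a2: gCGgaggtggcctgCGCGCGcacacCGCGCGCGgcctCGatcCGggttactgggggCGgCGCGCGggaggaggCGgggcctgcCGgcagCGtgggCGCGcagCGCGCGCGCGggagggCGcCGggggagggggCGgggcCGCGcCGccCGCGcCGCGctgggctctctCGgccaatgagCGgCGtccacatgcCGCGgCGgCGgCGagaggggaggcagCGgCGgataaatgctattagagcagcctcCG
Myh7: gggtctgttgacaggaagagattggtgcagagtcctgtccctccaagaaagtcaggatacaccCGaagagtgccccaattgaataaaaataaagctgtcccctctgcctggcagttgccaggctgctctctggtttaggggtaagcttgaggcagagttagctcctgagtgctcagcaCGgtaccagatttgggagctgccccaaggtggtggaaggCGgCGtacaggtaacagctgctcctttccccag

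The mRNA level did not order the mark over pre-IP either. In 10 equal groups of genes by mRNA level, median enrichment ran from -0.02 to 0.15 in normal and from -0.04 to 0.16 in failed tissue, with no steady course from group to group. The share at 1 or more was 18.1% in the lowest and 16.4% in the highest group of the normal heart. Without pre-IP the ChIP level ran from -0.48 below the array median in the lowest to 0.43 above it in the highest group of the normal heart, and the pre-IP level from -0.38 to 0.50. The ChIP and pre-IP arrays followed mRNA level alike. The 1240 genes marked in both hearts had a median mRNA level of 0.89 over the array median in the normal heart, against 1.16 for all genes compared and 2.26 for the 92 genes low in both.

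**Figure D3:**
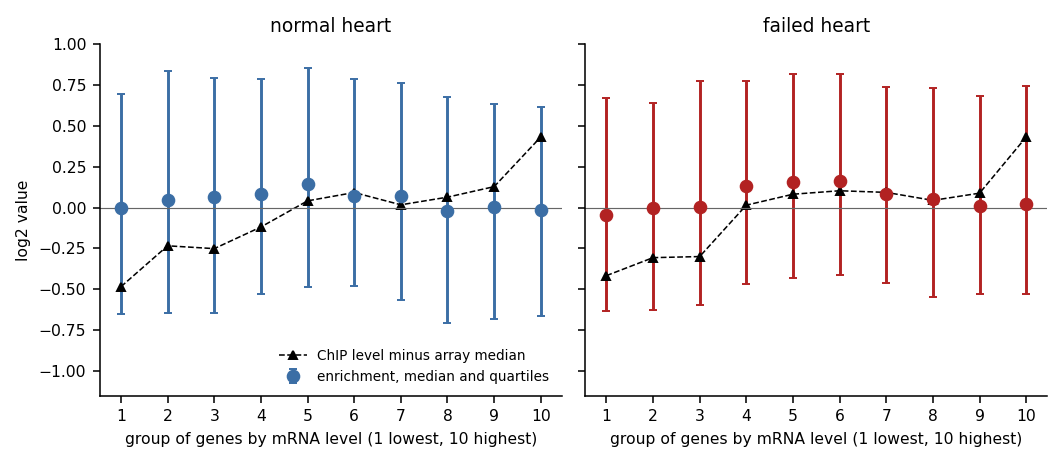
Median K4me2 enrichment with quartiles (circles, log2 ChIP minus pre-IP) and median ChIP level without pre-IP (triangles, log2 over the array median) in 10 groups of genes by mRNA level of the same heart, normal on the left and failed on the right. Median enrichment stays between -0.04 and 0.16, while the ChIP level alone is 0.43 in the highest group of each heart.

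The acetyl marks lay high at the same genes. At the 1240 genes marked by K4me2 in both hearts, median enrichment was 1.33 in the normal heart and just under 1 in the failed for acetylated H3, 0.93 and 0.73 for acetylated H4 and 0.58 and 0.14 for K4me3, against 0.32 and 0.38, 0.32 and 0.28, and 0.03 and -0.03 over all genes compared. The methylations K9me2, K9me3, K20me3 and K27me2 had medians of -0.56 and -0.90, -0.41 and -0.73, -0.36 and -0.51, and -0.32 and -0.35 there. Over all genes compared they also lay below 0, at -0.31 and -0.22, -0.08 and -0.14, -0.17 and -0.19, and -0.14 and -0.09. Without pre-IP their median levels at the 1240 genes were 0.32 and 0.28, 0.44 and 0.39, 0.52 and 0.68, and 0.53 and 0.77. Over all genes compared these levels were 0.48 and 0.59, 0.65 and 0.64, 0.61 and 0.61, and 0.62 and 0.68. All marks of a heart were set against the same pre-IP array, so these enrichments share values. The ChIP levels alone, with no pre-IP in them, had a Spearman rho with K4me2 across genes compared of 0.803 and 0.766 for acetylated H3, 0.702 and 0.804 for acetylated H4 and 0.735 and 0.601 for K4me3. For K9me2 it was 0.227 and 0.0958, for K9me3 0.255 and 0.140, for K20me3 0.302 and 0.334 and for K27me2 0.260 and 0.353. These arrays share the probe sets.

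The second question was which genes differed between the hearts. Of genes compared, 813 were higher by 1 or more in the failed heart (11.6%) and 467 lower (6.66%). On the deposited scale, without the rescaling to a common median, the counts were 479 higher and 788 lower, so which direction held more genes turned with the scaling. Over all genes measured the counts were 2026 (14.3%) and 1825 (12.8%). On the ChIP arrays alone, without pre-IP, 490 genes compared were higher (6.98%) and 184 lower (2.62%), and on the pre-IP arrays alone 371 were higher (5.29%) and 233 lower (3.32%). Only 254 of the 813 were also higher by 1 or more on the ChIP arrays, which is 31.2%, and 106 of the 467 were also lower, which is 22.7%. The pre-IP value was lower in the failed heart by 0.5 or more for 458 of the 813, against 17.6% of genes compared, and higher by as much for 321 of the 467, against 19.8%. The difference holds the pre-IP values, so these counts are not independent of it. The 7 other marks, set over the same pre-IP, moved the same way. Their median differences ran from 0.37 (K9me3) to 0.72 (acetylated H3) at the 813 and from -0.61 (K20me3) to -0.88 (acetylated H3) at the 467. On the ChIP arrays alone those marks had median differences from -0.26 to 0.13 at the 813 and from -0.10 to 0.13 at the 467. For K4me2 these were 0.78 and -0.59. Of the 1240 genes marked in both hearts, 88 differed by 1 or more either way (7.10%), beside 11.6% higher and 6.66% lower of genes compared. The requirement of 1 or more in both hearts itself limits how far these genes can differ, so this share is no measure of stability. The list counts stayed near the background of all genes measured for most lists, and none of the 29 had more than 7 members higher or 4 lower.

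**Figure D4:**
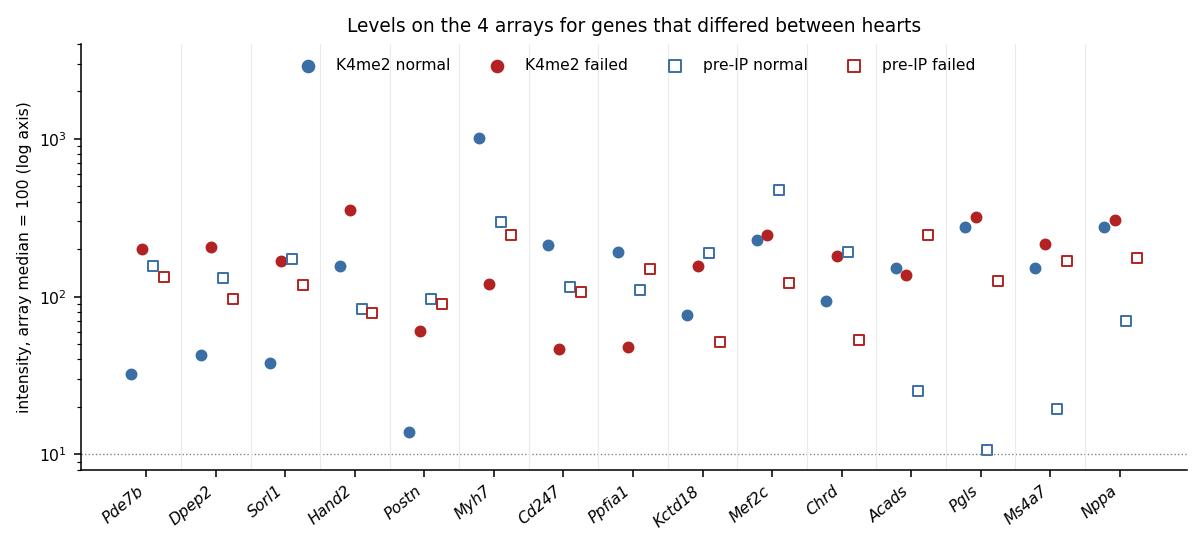
Intensity on the 4 arrays, rescaled to an array median of 100 and drawn on a log axis, for 15 named genes, with K4me2 as filled circles, pre-IP as open squares, normal in blue, failed in red and the floor of 10 dotted. For Pde7b to Ppfia1 the circles lie farther apart than the squares, and for Kctd18 to Nppa the squares lie farther apart than the circles.

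For a first kind of gene the ChIP arrays differed more than the pre-IP arrays. Myh7, the slow myosin heavy chain, gave K4me2 intensities of 1007 (normal) and 120 (failed) over pre-IP intensities of 298 and 244, so its normal ChIP value was the highest of the 4 and its failed one the lowest. Its enrichment went from 1.76 to -1.03, a difference of -2.78, or -3.07 without pre-IP, while its mRNA was higher in the failed heart by 1.61. Its other probe set had the same direction, from K4me2 intensities of 554 and 197, with a difference of -1.11. Pde7b, a cyclic AMP phosphodiesterase, gave 32.4 and 200 over 156 and 134, a difference of 2.85, or 2.63 without pre-IP. Dpep2, a dipeptidase, gave 42.4 and 208 over 132 and 97.1, a difference of 2.74, or 2.29 without pre-IP. In both genes the normal ChIP value alone lay apart from the other 3. Sorl1, a sorting receptor, gave 37.9 and 167 over 173 and 119, a difference of 2.68. Its 7 other probe sets ran from -0.42 to 2.46, with 5 above 0. Ttc32 and Ddah2, which breaks down an inhibitor of nitric oxide synthesis, differed by 2.97 and 2.95, or 2.01 and 1.77 without pre-IP. Ppfia1 gave 193 and 47.7 over 110 and 149, a difference of -2.45, but 1.20 at its other probe set.

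For a second kind the pre-IP arrays differed more. Acads, the short-chain acyl-CoA dehydrogenase, had the largest negative difference of the named genes, at -3.40, from K4me2 intensities of 152 and 138 over pre-IP intensities of 25.4 and 245. Its ChIP values were nearly equal and its pre-IP values were not. Pgls, of the pentose phosphate pathway, gave 277 and 320 over 10.7 and 126, a difference of -3.35, or 0.21 without pre-IP. Ms4a7, a macrophage membrane protein, gave 152 and 215 over 19.3 and 168, -2.62, or 0.50 without pre-IP. Atf6b, Zcchc17, Nek4 and Cimap1b differed by -2.62, -2.55, -2.47 and -2.44, and by -0.39, -0.06, -0.50 and -0.41 without pre-IP. Among genes higher in the failed heart, Kctd18 gave 76.0 and 156 over 189 and 51.5, a difference of 2.92 that was -0.63 and 0.30 at its other probe sets. Chrd, an antagonist of BMP signalling, gave 93.7 and 180 over 191 and 53.1, a difference of 2.78. In the gene rnf141 the arrays shared the difference almost evenly. It differed by 2.93, or 1.41 without pre-IP, with a pre-IP difference of -1.52. In Riok3, Nme7 and Pcp4l1 both pairs of arrays also contributed, but the ChIP arrays differed somewhat more, as in the first kind. They differed by 2.72, 2.71 and -2.72, and by 1.59, 1.52 and -1.42 without pre-IP.

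Genes with a known part in heart failure fell into both kinds. Hand2 gave K4me2 intensities of 157 and 355 over pre-IP intensities of 83.8 and 79.4, a difference of 1.26, with 1.03 at its other probe set. Mef2c, a muscle transcription factor, gave 229 and 245 over 477 and 123, a difference of 2.06 that was 0.10 without pre-IP and 0.17 at its other probe set. Nppa, which encodes atrial natriuretic peptide, gave 277 and 304 over 69.8 and 177, a difference of -1.21, or 0.13 without pre-IP, while its mRNA was higher by 4.30. Nppb, Acta1 and Ccn2 differed by -0.14, 0.29 and -0.11 with mRNA differences of 2.46, 1.92 and 3.04. Postn, a matrix protein of injured tissue, gave 13.8 and 60.2 over 96.3 and 89.4, a difference of 2.23, but these ChIP values lay below the array median and the gene did not pass the level filter. Ankrd1 had -1.49 and -1.90, with 1.11 and -0.31 at its other probe set. Col1a1, Col3a1 and Timp1 differed by 0.17, 0.69 and 0.89, Cpt1b by -1.26, and Pdk4, a brake on glucose oxidation, by 1.78, or 0.99 without pre-IP and 0.41 at its other probe set. Myh6, the fast myosin heavy chain, differed by 1.55, or 0.49 without pre-IP, below the level filter. Gata4, Nkx2-5, Tbx5 and Atp2a2 differed by 0.67, -0.01, -0.36 and -0.42, with -1.83 without pre-IP for Tbx5 and -0.99 for Atp2a2. Gata4 and Tbx5 did not pass the level filter.

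Ribosomal protein genes were the list in which all measured members shared a direction, with 14 of 25 listed genes measured. All 14 had a difference above 0, from 0.17 for Rpl5 to 1.04 for Rps16, with a median of 0.50 against 0.14 over genes compared. By symbol alone, 30 of 32 genes starting with Rpl and 17 of 21 starting with Rps were above 0, the latter with 6 higher and 2 lower by 1 or more and including kinase genes such as Rps6ka5. For comparison, 7560 of all 14217 genes measured and 4093 of the 7016 genes compared had a difference above 0. Of all genes measured, 14.3% were higher and 12.8% lower by 1 or more. The Rpl genes below 0 were Rpl14, at -0.16, and Rpl23a, at -0.07. Without pre-IP the median difference of the 14 was 0.51, with Rpl5 at -0.03, and the median pre-IP difference was -0.08. Rps16 gave K4me2 intensities of 917 and 1459 over 1116 and 863, so it went from below to above its pre-IP value. These genes lay far above the array median on all 4 arrays. In pre-IP DNA alone their median levels were 3.088 (normal) and 2.996 (failed) log2 units above the array median. Whether their probe sets also read near-identical copies was not tested, so the shared direction may not belong to these genes alone. After quantile normalization of the 4 arrays their median in the failed heart was -0.62 in place of 0.66, and as deposited -0.02. The median difference stayed above 0 over the 10 alternative settings but was smallest, at 0.11, after quantile normalization, which gives the arrays the same spread. It reached 0.51 without pre-IP. The alternatives on the level filter and on genes at the floor could not change it. At the same high percentile the arrays stood at 9.87 and 10.2 for K4me2 and 8.86 and 8.81 for pre-IP (log2, normal first). How much array spread adds to the difference of these bright genes was not tested.

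Whether a value came back at another probe set of the same gene was examined next. The first and second probe set of 1849 genes had a Pearson r across genes of 0.279 for normal and 0.420 for failed enrichment. For the difference r was 0.0539, against 0.176 for the ChIP difference without pre-IP and 0.116 for the pre-IP difference. Probe sets of a gene share the arrays, may lie close together or far apart, and were not placed on the genome. Of genes marked in both hearts with another probe set past the level filter, 128 of 269 were marked in both there too, which is 47.6%, against 21.9% of 1598 genes compared. Of genes higher in the failed heart, 28 of 189 reached 1 at the other probe set, 14.8% against 12.8%, and of genes lower 7 of 106 reached -1, 6.60% against 5.88%. The other probe set repeated the marked state more often than in genes compared at large, and repeated a difference at a share close to that of genes compared.

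Neighbouring genes gave the same picture at a smaller size. For 6987 pairs of genes compared that follow each other in the gene table, Spearman's rho was 0.145 for normal and 0.169 for failed enrichment, against 0.0387 and 0.0279 for pairs 50 genes apart. For the difference it was 0.0185 between neighbours and 0.00439 at 50 genes apart.

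**Figure D5:**
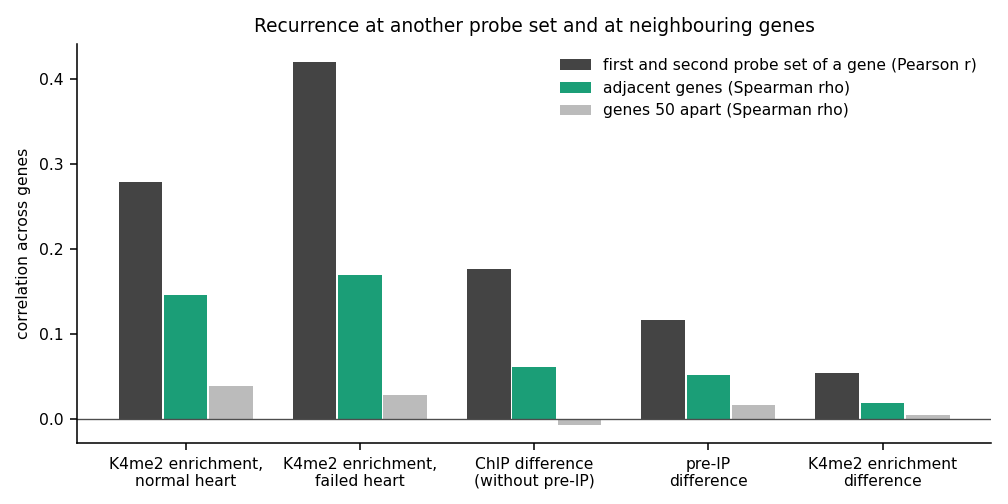
Correlation across genes (vertical axis) of K4me2 enrichment in each heart, of the ChIP and pre-IP differences and of the enrichment difference, between the first and second probe set of a gene (1849 genes), adjacent genes (6987 pairs) and genes 50 apart (5958 pairs). Enrichment reaches 0.420 at the other probe set, and its difference between hearts 0.0539.

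A few genes with several probe sets did differ the same way at each of them. Aplnr, the apelin receptor, gave K4me2 intensities of 643 and 1068 over 504 and 322 at 1 probe set and 415 and 949 at the other, with differences of 1.38 and 2.05. Myct1, a gene of endothelium, differed by 1.51 and 1.59, Reep6 by 1.88 and 1.99, Lipe, the hormone-sensitive lipase, by 1.56 and 1.41, Siae by 1.37 and 1.38, and the splicing factor gene Prpf18 by 1.34 and 1.53. In the other direction Cd247, the zeta chain of the T cell receptor, gave 213 and 46.7 over 115 and 107, a difference of -2.09, or -2.19 without pre-IP, with -1.78 at its other probe set, where the ChIP values alone differed by -0.27. Ppp1r16a differed by -1.61 and -2.06, Rd3 by -1.76 and -1.27, Tpd52 by -1.32 and -1.76, Man1c1 by -1.30 and -2.70 and Kcnip3 by -1.27 and -1.35. These genes were picked for a shared direction of their probe sets, so it is a description. Without pre-IP Rd3 differed by 0.08 and Lipe by 0.17 at the representing probe set.

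Differences in K4me2 did not follow differences in mRNA. Among genes compared that were also measurable in mRNA, the 608 with mRNA higher by 1 or more in the failed heart had a median K4me2 difference of 0.10, with 53 higher (8.72%) and 40 lower (6.58%) by 1 or more. The 154 with mRNA lower had a median of 0.21, with 12 each way (7.79%), and the 4273 others 0.15, with 523 higher (12.2%) and 267 lower (6.25%). Across genes compared the Spearman rho between the K4me2 and mRNA differences was 0.00576, and 0.00141 without pre-IP.

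A small set kept its difference whatever the input and scaling. Under all 10 alternative settings 48 of the 813 genes stayed higher by 1 or more and 21 of the 467 lower, and 145 of the 1240 stayed marked in both hearts. The genes named here were picked after their values were seen. Pde7b kept at least 2.23, Dpep2 1.85, and Pdk2, a kinase that restrains pyruvate oxidation, gave K4me2 intensities of 38.5 and 171 over 288 and 249 and kept 1.76. Hif3a, a hypoxia-inducible factor, kept 1.23, Il11ra1, the interleukin 11 receptor chain, 1.53, and Ccr2, the chemokine receptor of monocytes, 1.02. On the lower side Myh7 kept -1.95, the ribosome assembly genes Rpf2 and Rbm19 -1.75 and -1.64, and Trim63, a ubiquitin ligase of muscle wasting, -1.08, from 182 and 67.9 over 126 and 115. Of list members marked in both hearts in every setting there were 4: Maff of the immediate early genes, the receptor gene Adrb1, the fibroblast marker S100a4 and the endothelial marker Esam. The share among list members was close to that over all genes measured, 145 of 14217.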

How the data were processed

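K4me2 ChIP and pre-IP genomic DNA of 1 normal and 1 failed heart were hybridised to Rat Genome 230 2.0 arrays after fragmentation, amplification by in vitro transcription and labelling, per the labels' protocols. The values the authors deposited are intensity on a linear scale, with 31099 probe sets per array, of which 57 are controls. Their means after trimming 2% at each end lay between 500.03 and 500.17 on all 20 arrays. The tool that summarised and scaled them was not given in the sources used here. Deposited medians were 268 and 231 for K4me2 and 365 and 371 for pre-IP, normal first. With 1 array per group, the number of arrays limits the precision and no test was run.

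Arrays were rescaled to a median of 100, values under 10 were set to 10, which touched 2.23% to 3.55% of probe sets on the 4 arrays, and log2 was taken (Python 3.11.15, pandas 2.3.3, scipy 1.17.1). Of the probe sets 20826 had 1 gene in GEO's platform annotation, 436 had several and 9780 had no entry, and only the first kind was used. Where a gene had several probe sets, the one brightest on average in mRNA stood for it. Symbols came from that annotation, with 20758 probe sets matched to RefSeq gene identifiers and 0 renamed. Promoter sequences are from RefSeq.

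Named genes were the 12 highest and 6 lowest mean enrichments, the 10 largest differences each way, the 6 genes each way whose probe sets all shared a direction, 19 preset heart genes, and the 2 highest and 2 lowest members of a list. Further list members are named by their values. The 29 lists, the members and these rules were chosen with earlier results of these data known. The counting was checked on simulated data. Scaling, floor, pre-IP array, probe set choice and level filter were varied.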

Additional observations from a re-analysis of the deposited data

Results flagged for a closer look

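Probe sets with no gene listed in the annotation, left out of all comparisons, also carried K4me2 over pre-IP. Of 9780 such probe sets 4606 passed the level filter, and 1188 of them, 25.8%, were at 1 or more in both hearts, against 18.4% of the probe sets with 1 gene. Their shares higher and lower by 1 or more in the failed heart were 11.7% and 5.80%, against 11.8% and 6.31%. They were set apart because they lie outside the main measurement. None of the 45 exogenous control probe sets, which serve as a blank here, passed the level filter. The sources used here do not tell what these probe sets cover, and the difference in share was not tested.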

How the results depend on the processing

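The direction of the relation between hearts held under all 10 alternatives, with rho from 0.512 without the level filter to 0.826 without pre-IP, and the counts depended on scaling and input. The number of genes marked in both hearts, 1240, was 438 as deposited, 330 after quantile normalization and 2941 without pre-IP. The 92 low in both were 600 as deposited, 298 after quantile normalization, 0 without pre-IP, 461 with no level filter and 193 with the filter on pre-IP only. The 813 higher were 479 as deposited, 490 without pre-IP or with pre-IP averaged over both hearts, 1272 with pre-IP swapped between hearts and 2026 with no level filter. The 467 lower were 788 as deposited, 766 after quantile normalization, 184 without pre-IP or with pre-IP averaged, and 1825 with no level filter. As deposited the median of all genes shifted to -0.39 (normal) and -0.61 (failed) and that of the difference to -0.16, and changes are relative to it. The split of higher against lower genes turned with it. Leaving out genes at the floor altered none of these 4 counts, since no gene compared was there.

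List medians of 0.5 or more in size changed sign in 10 cases. As deposited these were, in the failed heart, ion channels at -0.042, ribosomal proteins at -0.015, clock genes at -0.15 and endothelial markers at -0.13, and after quantile normalization ribosomal proteins at -0.62. Without pre-IP they were, in the normal heart, calcium handling at 0.53, fatty acid oxidation at 0.36, endothelial markers at -0.22 and red cell markers at -0.29, and, in the failed heart, proteasome at 0.42. The immediate early medians ranged over 0.63 to 2.24 (normal) and 0.64 to 2.53 (failed).

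With the pre-IP arrays swapped, 20 of 50 named differences changed sign: Acads to 3.13, Atf6b to 1.85, Chrd to -0.90, Cimap1b to 1.61, Kcnip3 to 0.34, Kctd18 to -0.84, Lipe to -1.22, Mef2c to -1.85, Ms4a7 to 3.62, Myh6 to -0.57, Nek4 to 1.47, Nppa to 1.47, Pgls to 3.77, Ppp1r16a to 0.52, Prpf18 to -0.26, Rd3 to 1.93, Reep6 to -0.43, Siae to -0.20, Zcchc17 to 2.44 and rnf141 to -0.10. Without pre-IP or with it averaged, Ms4a7 was 0.50, Nppa 0.13, Pgls 0.21 and Rd3 0.082, and 19 others kept their sign but were under 1 in size. The cause was not tested beyond the construction of these settings.

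No paired analysis was possible because each assay had 1 array per heart. Dim pre-IP values near the floor of 10 limit the size of an enrichment, as for Pgls. Protein length was not used, since no protein table was at hand.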
